A study of Rattus norvegicus with 56 samples.

Results

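Fetal heart muscle and the serum of pregnancy were compared in the untreated arm of a rat study, with 14 small RNA libraries chosen by their labels from the 56 of the series. They were the 7 libraries of fetal myocardium and the 7 libraries of maternal serum of the negative control (NC) group. NC dams were Sprague–Dawley rats gavaged with distilled water, and the dams of the treated arm received dimethadione (DMO) in its place. Hearts and maternal blood were taken on embryonic day 19 (D19). The hearts were washed, embedded in paraffin and extracted from the wax blocks, whereas serum was separated from clotted blood drawn by cardiac puncture and stored frozen. Libraries of both kinds were made with the same TruSeq Small RNA kit and read on the same model of sequencer. Fetus against dam, fixed tissue against fluid and extraction kit against extraction kit all coincide with myocardium against serum in this design, so a difference below cannot be told apart between them. The labels do not tie a fetus to its dam, and no label says that the libraries of a group came from separate litters, so p-values measure the spread between these libraries.

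MicroRNAs are RNAs of about the length of the sequences below that lower the output of messenger RNAs, mostly through pairing of their seed, bases 2 to 8 from the 5′ end. A hairpin precursor can yield a mature microRNA from its 5′ arm (5p) and from its 3′ arm (3p), and usually 1 of the arms is kept. Heart muscle is known for the muscle microRNAs miR-1 and miR-133 and for microRNAs carried inside myosin heavy chain genes (miR-208a, miR-208b and miR-499). Serum carries microRNAs that are released by blood cells, vessels, liver and other organs and that are shielded from nucleases by proteins or vesicles.

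The sequences below are the mature microRNAs that the results turn on, as RefSeq lists them for the rat assembly GRCr8, with the seed in capitals. Names were matched for 604 of the 670 microRNAs of either table. The first 3 share the seed of miR-1, the leading muscle seed of the heart. MiR-1b differs from miR-1-3p by a single base, G17A, and miR-206-3p, a microRNA of skeletal muscle, differs from miR-1-3p at 3 positions (positions are counted from the 5′ end, with the base of the first-named microRNA first).
miR-1-3p: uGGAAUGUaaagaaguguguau
miR-1b: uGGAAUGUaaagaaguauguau
miR-206-3p: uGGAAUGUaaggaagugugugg
The next 5 are the highest microRNAs of the heart (miR-143-3p and miR-21-5p) and 3 of the 4 highest of serum.
miR-143-3p: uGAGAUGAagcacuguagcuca
miR-21-5p: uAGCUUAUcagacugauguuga
miR-191a-5p: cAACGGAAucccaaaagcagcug
miR-16-5p: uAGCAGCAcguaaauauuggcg
miR-223-3p: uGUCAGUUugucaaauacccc
The let-7 members below share a seed and nearly all other bases, but took different places in the heart and in serum. Let-7b-5p and let-7c-5p differ by G17A, and let-7a-5p and let-7f-5p by G12A.
let-7a-5p: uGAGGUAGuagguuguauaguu
let-7b-5p: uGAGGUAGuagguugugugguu
let-7c-5p: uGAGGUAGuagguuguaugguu
let-7f-5p: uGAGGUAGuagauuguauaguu
The last 4 are both arms of miR-542 and of miR-199a, the hairpins with the largest shift between arms.
miR-542-5p: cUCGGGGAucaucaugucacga
miR-542-3p: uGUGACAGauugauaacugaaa
miR-199a-5p: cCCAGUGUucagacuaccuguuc
miR-199a-3p: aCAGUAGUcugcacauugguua

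Myocardium libraries held between 4366457 and 9371130 microRNA counts, and serum libraries between 271578 and 581350, so the median totals differed 13.9-fold. Levels are given as counts scaled to 1000000 microRNA counts per library (CPM). A count of 0 in a single library allows up to 0.687 CPM in myocardium and up to 11.05 CPM in serum, and these limits cover counting error only. Myocardium replicate 2 stood apart. Its log levels had a median correlation of 0.945 with the other 6 of its group, against 0.976 to 0.984 for the others. It held the lowest heart muscle microRNAs of the 7 (15963 CPM in sum, against 70435 to 150549 CPM) and the highest epithelial ones (18127 CPM, against 178 to 5705 CPM). Where leaving it out changed the calls of a list or of a microRNA described below, the value without it is also given.

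The heart spread its microRNA counts over more microRNAs than serum did. The effective number of microRNAs, the exponential of the Shannon entropy and the number of equally abundant microRNAs with the same evenness, was 32.9 ± 5.72 (SD, n = 7) in myocardium and 20.3 ± 1.91 (SD, n = 7) in serum. The ranges, 24.04 to 39.6 and 17.3 to 22.9, did not overlap (exact permutation test, two-sided, adjusted p = 0.000777, from the smallest p that 7 against 7 libraries can give). The 10 highest microRNAs of each library took 65.1% ± 4.21 of its counts in myocardium and 72.9% ± 2.13 in serum, with overlapping ranges (exact permutation test, adjusted p = 0.00233). MicroRNAs with at least 1 count numbered 573 ± 20.5 in a myocardium library and 401 ± 22.2 in a serum library. Rarefied to the depth of the smallest library, 271578 counts, they numbered 423 ± 17.9 and 381 ± 9.25 (exact permutation test, adjusted p = 0.000777). Over the microRNAs that both tables list, the difference at equal depth was 8.89 microRNAs (exact permutation test, adjusted p = 0.165). Each table lists only names with a count in it. Keeping names of both tables therefore lessens such a difference by itself and cannot show where it comes from.

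A single microRNA headed each sample type. MiR-143-3p, a product of smooth muscle and mesenchymal cells, ranged from 173255 through a median of 223973 to 297993 CPM in myocardium, a mean of 21.8% of all microRNA counts. MiR-21-5p, which many tissues express and which is abundant in fibroblasts, followed with 84443, 109023 and 120851 CPM as the lowest, median and highest values. MiR-148a-3p (mean 56771 CPM), miR-1b (53588 CPM), miR-30a-5p (51989.8 CPM), miR-26a-5p (38187 CPM), let-7i-5p (32426 CPM), miR-30d-5p (32199 CPM), miR-1-3p (24600 CPM) and miR-378a-3p (22384 CPM) completed the 10 highest. In serum miR-191a-5p ranged from 206778 through 266444 to 329003 CPM, a mean of 27.9% of counts. MiR-16-5p, abundant in red cells and platelets, came next with 108651, 138145 and 227375 CPM. MiR-486, an erythroid and muscle microRNA, had 64938, 89523 and 185132 CPM. MiR-223-3p (mean 35431 CPM), miR-128-3p (26056 CPM), miR-30d-5p (25117 CPM), let-7c-5p (25112 CPM), miR-25-3p (24056 CPM), let-7b-5p (22850.1 CPM) and miR-29a-3p (20803 CPM) completed the serum list. MiR-30d-5p was the only microRNA in the 10 highest of both.

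**Figure D1:**
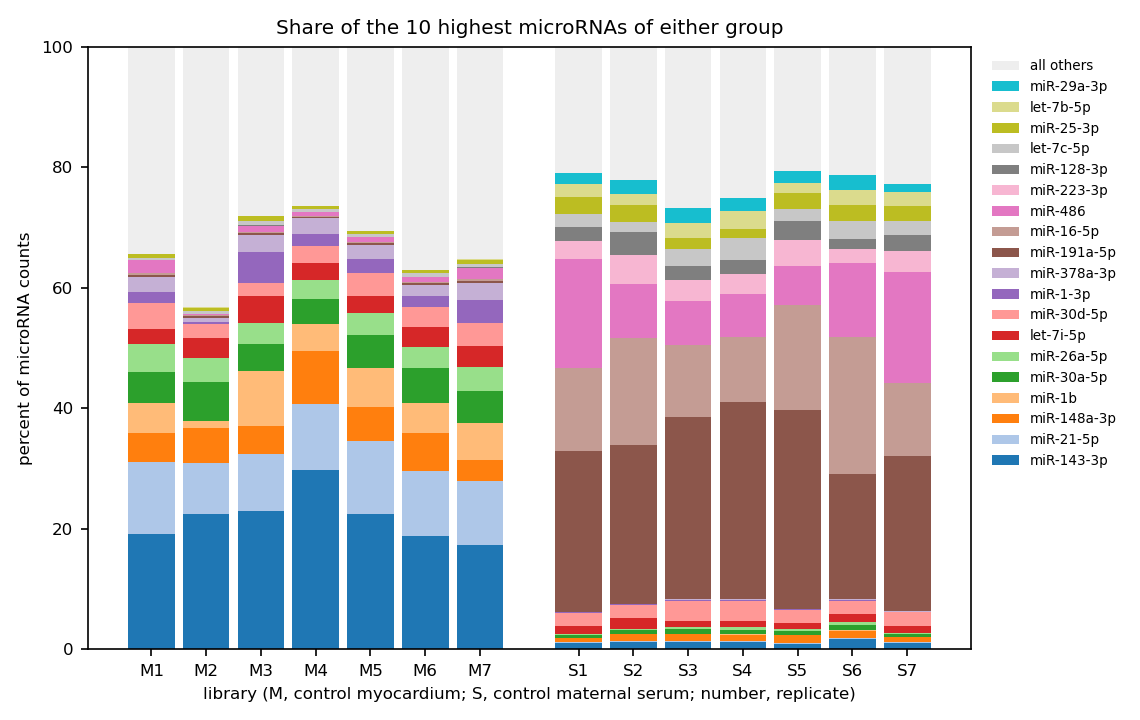
Stacked bars give the percent of microRNA counts (vertical axis, 0 to 100) held by each of the 10 highest microRNAs of myocardium and of serum in every control library (horizontal axis; M, myocardium; S, serum). MiR-143-3p fills the base of all 7 myocardium bars with a mean of 21.8%, miR-191a-5p takes a wide band in all 7 serum bars with a mean of 27.9%, and miR-1b is thinnest among the hearts in the bar of myocardium replicate 2 (11368 CPM).

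Of the 509 microRNAs listed in both tables, 382 had enough counts to be tested. Called here means an adjusted p under 0.05 and at least a 2-fold difference in the share of microRNA counts. On that rule 176 microRNAs (46.1% of those tested) were higher in myocardium and 105 (27.5%) were lower. The median log2 difference (myocardium minus serum) of all 382 was 0.86, and list medians below are to be read beside it. Counts of called members in a list are to be read beside the 46.1% and 27.5%. The balance of calls depended on which microRNAs were tested. Requiring at least 10 counts in every library leaves out microRNAs that are high in the heart and low in the shallower serum libraries. Among the 171 that remain, 54 (31.6%) were higher and 62 (36.3%) lower, a share of 46.6% of calls against 62.6%, with a median of 0.04. Ranges of the 7 and the 7 libraries did not overlap for 223 of the 382 (58.4%). Without myocardium replicate 2 the same 382 gave 169 higher and 117 lower. Scaling by trimmed mean of M-values (TMM) gave 163 higher (42.7%) and 117 lower (30.6%), shifted the median by -0.29 and changed the sign of 13 microRNAs, 0 of them called.

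**Figure D2:**
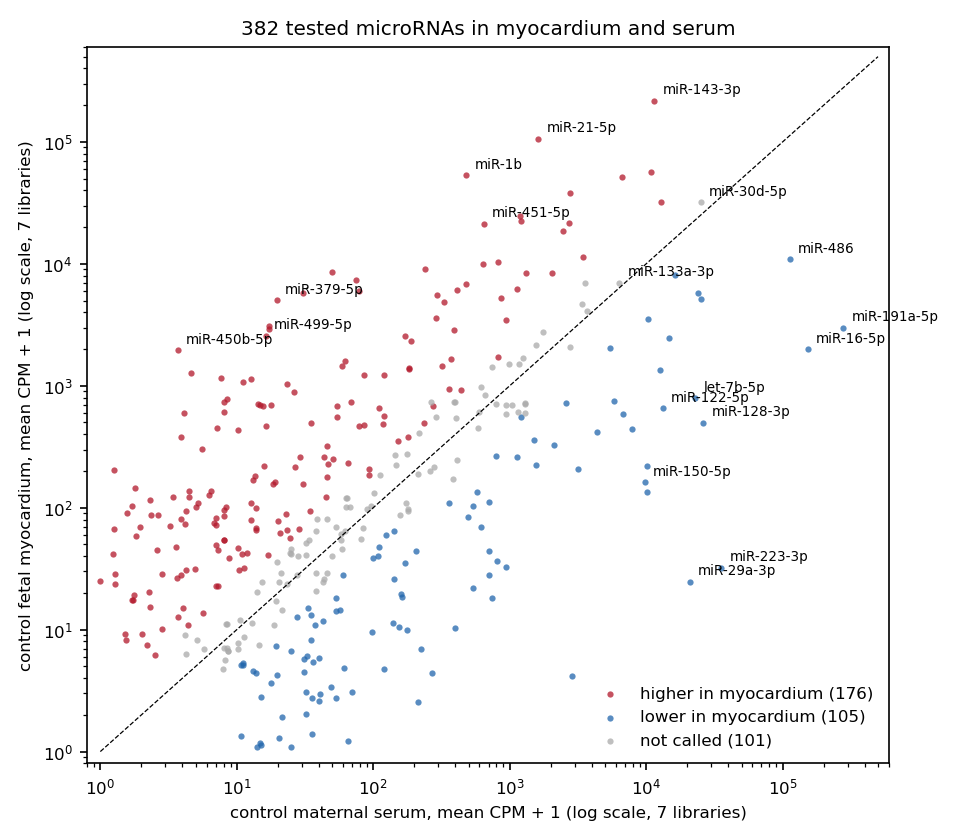
Each point is 1 of 382 tested microRNAs, placed by its mean CPM + 1 in control serum (horizontal, log scale) and control myocardium (vertical, log scale); the dashed line marks equal shares. The 176 microRNAs called higher in myocardium (red) lie above the line and the 105 called lower (blue) below it, some of them close to it. MiR-133a-3p and miR-30d-5p lie near the line among the 101 not called (grey).

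The microRNAs farthest on the heart side at a mean of 1000 CPM or more included members of an X chromosome cluster (miR-450a, miR-450b and miR-542) and of the imprinted Dlk1-Dio3 locus (miR-379 and miR-411). MiR-450b-5p had 1437, 1815 and 3251 CPM as its lowest, median and highest values in myocardium and 0, 1.72 and 11.05 CPM in serum, a log2 difference of 9.66 (95% CI 8.45 to 10.86, adjusted p = 1.21e-10). MiR-374-5p (8.44), miR-379-5p (8.08), miR-218a-5p (7.63), miR-199a-5p (7.58), miR-450a-5p (7.55), miR-542-3p (7.45), miR-499-5p (7.41), miR-411-5p (7.36) and miR-1b (6.81) followed in log2 difference. In all 10 the lowest myocardium library exceeded the highest serum library, but they were chosen for the largest differences, so this adds no separate support. MiR-450b-5p, at a mean of 2.68 CPM in serum, had enough counts to be tested only through its myocardium libraries. The same holds for miR-379-5p, at 2.02 CPM in its lowest serum library. It may hold for others of the 10 with low serum counts. On the serum side miR-223-3p, a microRNA of neutrophils, monocytes and platelets, had 18.2, 28.1 and 45.9 CPM in myocardium and 23187, 35054 and 48798 CPM in serum (log2 difference -10.14, 95% CI -10.84 to -9.45, adjusted p = 8.70e-14). The next by log2 difference were miR-29c-3p (-9.80), miR-29a-3p (-9.77), miR-191a-5p (-6.54), miR-16-5p (-6.27), miR-339-5p (-6.25), miR-150-5p (-5.92), miR-128-3p (-5.71), miR-342-3p (-5.55) and let-7b-5p (-4.85). For these 10, chosen in the same way, the ranges did not overlap either.

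The defining microRNAs of heart muscle were present in all 7 myocardium libraries, but not every muscle microRNA set the heart apart from serum. Of the list of heart and skeletal muscle microRNAs 3 were higher, 0 lower and 2 not called of 5 tested, with a median log2 difference of 4.38, and the summed list held 85558 ± 41412 CPM in the heart and 8166 ± 3510 CPM in serum (SD, n = 7). MiR-1b ranged from 11368 through 49757 to 91938 CPM in myocardium and from 107 through 499 to 873 CPM in serum (log2 difference 6.81, 95% CI 5.56 to 8.06, adjusted p = 1.52e-08). MiR-1-3p had 2983, 19506 and 50759 CPM in myocardium and 323, 1219 and 2103 CPM in serum (log2 difference 4.38, adjusted p = 1.71e-06). Replicate 2 was the lowest heart library for both. MiR-133a-3p, made from the same primary transcripts as miR-1, did not differ detectably, with 1519, 7500 and 11992 CPM in myocardium and 2959, 7316 and 10209 CPM in serum. Its log2 difference was 0.14 (95% CI -0.61 to 0.89, adjusted p = 0.714) and changed sign, to -0.08, under TMM. MiR-133b-3p gave 0.64 (95% CI -0.14 to 1.41, adjusted p = 0.123), and miR-133a-5p, at 121 and 3.49 CPM, was higher in the heart (5.06). Within a library, miR-1-3p was at a median of 2.97 times miR-133a-3p in myocardium and 0.167 times in serum. The log2 ratio ran from 0.97 to 2.76 in the heart and from -3.19 to -2.09 in serum. That pair was picked after its levels were seen, and no test was made of it.

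The microRNAs encoded in myosin heavy chain genes were 3 higher and 0 lower of 4 tested, beside 46.1% and 27.5% of all tested. Of the 4, 0 had at least 10 counts in every library. MiR-208a-3p and miR-208b-3p had enough counts to be tested only through their heart libraries, where they were high. The count of calls in this list is thus partly set by the filter. MiR-499-5p, of a slow myosin gene, had 370, 2369 and 4179 CPM in myocardium and 5.93, 10.9 and 29.5 CPM in serum (log2 difference 7.41, adjusted p = 3.36e-09). MiR-208b-3p, of the fetal beta-myosin gene, had 58.3, 592 and 1094 CPM in the heart, and in serum it was at most 14.7 CPM and 0 in its lowest library (log2 difference 6.48, adjusted p = 4.70e-07). MiR-208a-3p, of the adult alpha-myosin gene, was lower in the heart than miR-208b-3p, with 26.1, 45.4 and 71.7 CPM, and had 2.96, 5.95 and 21.8 CPM in serum (log2 difference 2.32, adjusted p = 8.80e-05). The descending order miR-499-5p, miR-208b-3p, miR-208a-3p held within each of the 7 heart libraries, and the ranges of the last pair overlapped through replicate 2, which held 58.3 and 29.7 CPM. In serum these microRNAs rest on few reads, since 11.05 CPM is the limit of a count of 0 in the shallowest library. The skeletal muscle microRNA miR-206-3p was even in serum, with 561, 775 and 1156 CPM, and very uneven in the heart, with 19.96, 31.8 and 3406 CPM. Replicates 6 and 4 held 3406 and 1213 CPM of it, and the other 5 held 19.96 to 186 CPM. The log2 difference of the means was -0.17 (95% CI -2.22 to 1.89, adjusted p = 0.876). On the mean of log values, which gives the 5 low hearts more weight, it was -2.67 (limma on log2(CPM + 1), adjusted p = 0.0211).

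**Figure D3:**
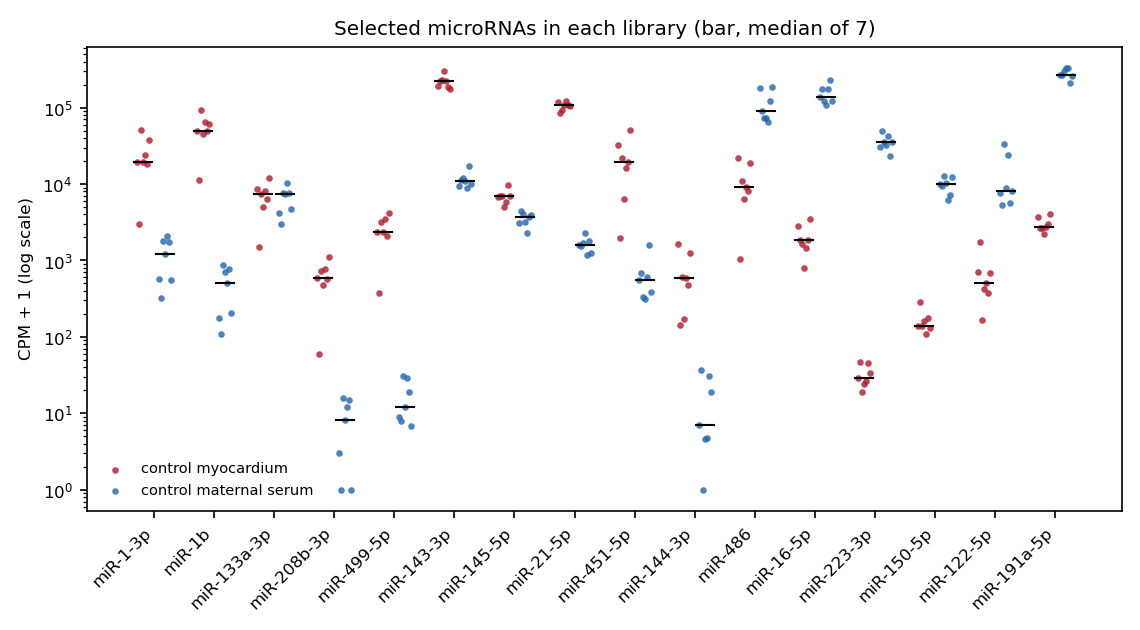
Points give CPM + 1 (log scale) of 16 microRNAs in each of the 7 control myocardium (red) and 7 control serum libraries (blue), with the median of 7 as a bar. Red and blue do not overlap for miR-1b, miR-499-5p, miR-451-5p, miR-223-3p or miR-191a-5p and overlap for miR-133a-3p, at medians of 7500 and 7316 CPM.

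MicroRNAs of vessel wall and connective tissue cells were higher in the heart on some arms and level on others. Of 4 tested smooth muscle microRNAs, miR-143-3p (log2 difference 4.26, adjusted p = 5.91e-12), miR-143-5p (2.85) and miR-145-3p (2.36) were called. MiR-145-5p, from the same transcript as miR-143, had 4984, 6942 and 9755 CPM in myocardium and 2291, 3710 and 4433 CPM in serum. Its log2 difference of 0.97 (adjusted p = 0.000151) fell short of 2-fold although the ranges did not overlap. Of both endothelial microRNAs tested, miR-126a-3p had 9414, 10997 and 14142 CPM against 1981, 3441 and 5292 CPM (log2 difference 1.72, adjusted p = 2.24e-06). Its partner arm miR-126a-5p gave 0.35 (95% CI -0.23 to 0.92, adjusted p = 0.25), and 0.07 without myocardium replicate 2. Of 3 tested mesenchymal microRNAs, miR-199a-5p (7.58) and miR-214-3p (3.86) were higher in the heart, whereas miR-199a-3p had 2232, 3337 and 9014 CPM in myocardium and 2711, 3891 and 4514 CPM in serum (0.16, 95% CI -0.43 to 0.74, adjusted p = 0.612). That value changed sign without replicate 2 and under TMM, to -0.16 in each case.

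MicroRNAs of blood cells split by cell type and, for red cells, within the list, where 3 were higher and 1 lower of 5 tested. In bulk heart tissue fewer cells of a type and less of its RNA per cell cannot be told apart. Serum was separated from clotted blood and carries released RNA, so its levels are not counts of cells. MiR-451-5p, the leading microRNA of maturing red cells, was higher in the heart, with 1982, 19676 and 50904 CPM, than in serum, with 313, 551 and 1606 CPM (log2 difference 5.05, 95% CI 3.72 to 6.38, adjusted p = 1.19e-06). MiR-144-3p (5.55) and miR-144-5p (5.50), from the same transcript, differed likewise. MiR-486, also erythroid, went the other way, with 1031, 9011 and 22164 CPM in the heart against its serum range from 64938 CPM (log2 difference -3.37, adjusted p = 1.02e-05). The ratio of miR-451-5p to miR-486 had a median of 1.92 in the heart and was above 1 in all 7 libraries, whereas in serum miR-486 was at a median of 213.9 times miR-451-5p. MiR-16-5p also exceeded miR-451-5p in serum, by a median of 286.0 times, and was below it in all 7 heart libraries. These pairs were picked after their levels were seen and carry no test. The summed red cell list ranged from 3267 to 73089 CPM among the heart libraries, with replicate 2 lowest and replicate 7 highest, so these microRNAs were uneven among the hearts. Of the white cell list 6 of 7 tested members were lower in the heart and 0 higher, against 27.5% and 46.1% of all tested. Without replicate 2 the list was 6 lower and 1 higher. MiR-150-5p, of lymphocytes, had 109, 136 and 283 CPM in myocardium and 6274, 9913 and 12637 CPM in serum (-5.92). MiR-142-5p had 91.98, 616 and 1417 CPM against 4071, 5350 and 9220 CPM (-2.97), whereas its other arm, miR-142-3p, was not called (0.92, 95% CI -0.21 to 2.04, adjusted p = 0.125) but was called higher in the heart without replicate 2 (1.11, adjusted p = 0.035).

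MiR-122-5p, the most abundant microRNA of hepatocytes, had 5356, 8167 and 33552 CPM in serum and 164, 501 and 1765 CPM in myocardium (log2 difference -4.33, 95% CI -5.55 to -3.11, adjusted p = 2.65e-06). Serum replicates 3 and 5 held 33552 and 23686 CPM of it, and the other 5 no more than 8751 CPM. The liver and gut list was 0 higher and 3 lower of 3 tested, with miR-192-5p at -2.69 and miR-194-5p at -1.44. The epithelial list was 4 higher and 2 lower of 11 tested, beside 46.1% and 27.5% of all tested. That list turned on replicate 2. MiR-200b-3p had 69.1, 524 and 6816 CPM in the heart and 11.1, 51.0 and 101 CPM in serum, and replicate 2 was the library at 6816 CPM. Its log2 difference was 4.69 and was 3.54 without that library. Without replicate 2 the list was 2 higher and 6 lower of the same 11, and its median went from -0.64 to -2.26. The neural list was 2 higher and 0 lower of 3 tested. MiR-7a-5p, which is also expressed in endocrine and muscle tissue, had 3159, 5882 and 14683 CPM in the heart against 40.5, 72.5 and 108 CPM (6.63, adjusted p = 2.91e-10). MiR-9a-5p, the other neural member called, was at a mean of 465 CPM in the heart and 15.4 CPM in serum. The neuron-defining miR-124-3p was at a mean of 2.51 CPM in the heart and was not listed for serum.

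**Figure D4:**
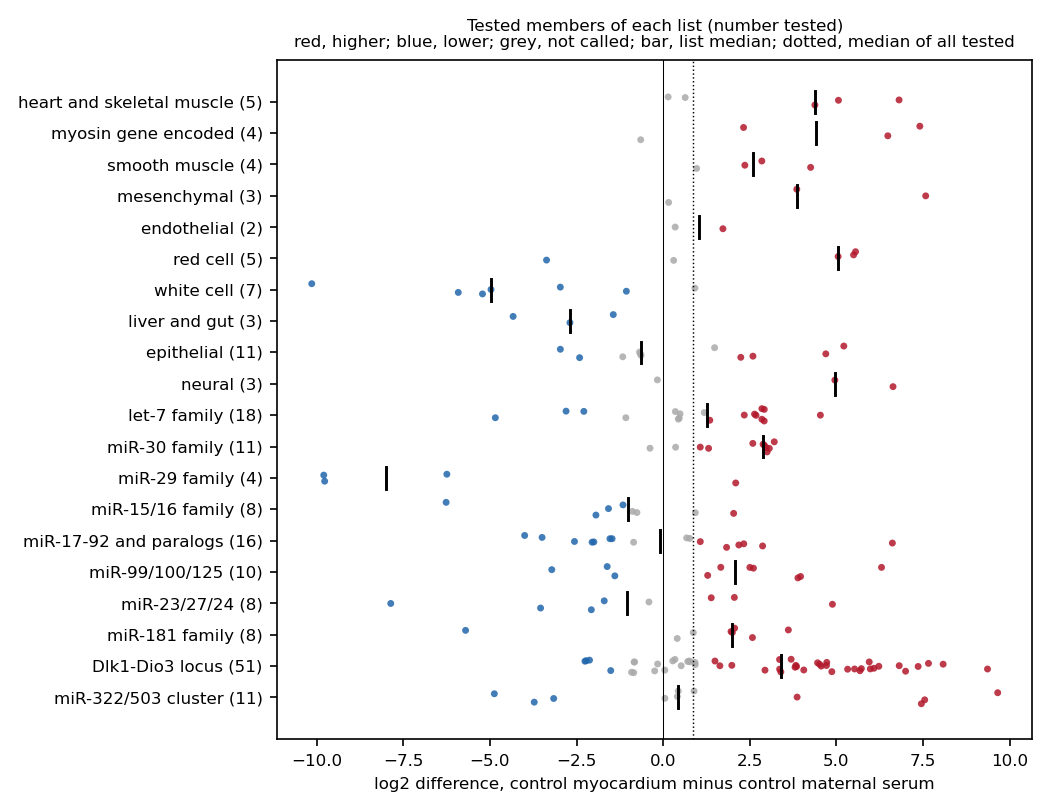
Each point is a tested member of a microRNA list or family, placed by its log2 difference of control myocardium minus control serum (horizontal axis), with the list median as a bar and the median of all 382 tested, 0.86, dotted. Called members of the muscle, smooth muscle and miR-30 lists all lie to the right (higher in myocardium, red) and those of the white cell and liver lists all to the left (lower, blue), and the let-7, miR-17-92 and miR-322 lists hold called points on both sides.

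The let-7 family took shares of counts that overlapped between heart and serum, made up by different members. Let-7 microRNAs restrain proliferation and rise as tissues mature. Members that carry the let-7 seed held 7.26% ± 1.05 of counts in myocardium (6.03% to 8.56%) and 6.88% ± 1.08 in serum (5.29% to 8.71%; log2 difference 0.08, exact permutation test, adjusted p = 0.499). This was the only 1 of the 19 seeds tested without a difference at an adjusted p under 0.05. Within the family let-7i-5p made up 44.5% ± 3.74 in the heart and 19.1% ± 5.65 in serum, and let-7f-5p 25.8% ± 3.66 and 3.61% ± 0.970. Let-7b-5p made up 1.09% ± 0.181 in the heart and 33.1% ± 2.78 in serum, and let-7c-5p 7.002% ± 0.938 and 36.0% ± 5.15. In levels, let-7b-5p had 570, 760 and 1199.9 CPM in myocardium and 17089, 23217 and 30660.0 CPM in serum (log2 difference -4.85). Let-7f-5p had 16052, 16899.7 and 26708 CPM in myocardium and 1319.7, 2555 and 3447 CPM in serum (2.92). Let-7a-5p, which differs by a single base from let-7c-5p (A19G) and from let-7f-5p (G12A), was between them (0.46, adjusted p = 0.0246, not 2-fold). Over both arms the family was 9 higher and 3 lower of 18 tested (9 and 4 without replicate 2), shares near the 46.1% and 27.5% of all tested. How the counting assigned reads that match several members is not given in the sources used here, so the split between members a single base apart, in this family and in the pairs of miR-1, miR-23, miR-27 and miR-29, is uncertain.

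Near-identical members divided between the sample types in other families as well. MiR-23a-3p and miR-23b-3p differ by U19A. MiR-23a-3p was lower in the heart, with 472, 611 and 711 CPM against 5441, 7291 and 7644 CPM (-3.54, adjusted p = 1.05e-11). MiR-23b-3p was higher, with 732, 864 and 1288 CPM against 224, 323 and 490 CPM (1.39, adjusted p = 2.83e-05). MiR-27a-3p (-2.07) and miR-27b-3p (2.05) parted in the same way, and miR-24-3p, which both clusters encode, was not called (-0.41, adjusted p = 0.0354). Over both arms these clusters were 3 higher and 4 lower of 8 tested. Among miR-99, miR-100 and miR-125, miR-100-5p had 3635, 6854 and 8097 CPM against 46.1, 65.4 and 115 CPM (6.30, adjusted p = 1.52e-11). MiR-99b-5p (3.97) and miR-99a-5p (3.89) were likewise higher in the heart. MiR-125a-5p, a cluster partner of miR-99b, was lower, with 923, 1356 and 1845 CPM against 6845, 15168 and 19646 CPM (-3.22), as was miR-125b-5p (-1.40), and the group was 7 higher and 3 lower of 10 tested. The miR-17-92 cluster and its paralogs, which promote growth of the embryonic heart and of blood progenitors, were 6 higher and 7 lower of 16 tested, beside 46.1% and 27.5% of all tested. MiR-20a-5p (2.87), miR-17-5p (2.18) and miR-106b-5p (6.62) were higher in the heart and miR-92a-3p (-2.56), miR-25-3p (-2.05) and miR-93-5p (-1.54) were lower, although miR-106b, miR-93 and miR-25 share a primary transcript.

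Other families were called mostly, but seldom wholly, in a single direction. Their counts stand beside 46.1% higher and 27.5% lower of all tested. The miR-30 family was 9 higher and 0 lower of 11 tested (8 higher without replicate 2), led by miR-30a-5p with 41523, 52602 and 64925 CPM against 4516, 6921 and 9088 CPM (2.97, adjusted p = 3.07e-10). Its member miR-30d-5p was close to level, with 21941, 32989 and 41742 CPM against 20689, 22904 and 33158 CPM (0.36, 95% CI -0.03 to 0.75, adjusted p = 0.0853). The miR-29 family, which represses collagen genes, was low in the fetal heart on its 3p arm. MiR-29a-3p had 15.6, 21.4 and 44.0 CPM in myocardium and 14084, 20253 and 25971 CPM in serum (-9.77, adjusted p = 1.09e-13). MiR-29c-3p, which differs from it by C10U, had 1.83, 3.34 and 4.38 CPM against 1348, 2639 and 4885 CPM (-9.80), and miR-29b-3p gave -6.24. The passenger arm miR-29c-5p was higher in the heart, with 10.8, 14.2 and 18.2 CPM against at most 6.05 CPM (2.09, adjusted p = 0.0015), and thus exceeded its own 3p arm there by ranges that did not overlap. The miR-15/16 family was 1 higher and 4 lower of 8 tested (1 and 5 without replicate 2), and miR-16-5p (-6.27) far exceeded miR-15b-5p (-1.58) and miR-15a-5p (-1.16) in its difference. MiR-181a-5p had 1639, 2233 and 3520.4 CPM in the heart and 95.8, 158 and 313 CPM in serum (3.61), and its family was 5 higher and 1 lower of 8. Smaller lists held few tested members. The embryonic stem cell microRNAs of the miR-290 to miR-302 clusters were 0 higher and 2 lower of 3, the placental Sfmbt2 cluster 1 higher and 2 lower of 5, and microRNAs made without Drosha 0 higher and 0 lower of 3. The sensory organ cluster of miR-183 was 1 higher and 0 lower of 3, and 0 higher and 1 lower both without replicate 2 and under TMM. MiR-183-5p gave -1.10 (adjusted p = 0.0651) with all libraries and -1.85 (adjusted p = 0.000343) without replicate 2, and miR-96-5p gave 2.04 (adjusted p = 0.0331) and 1.24 (adjusted p = 0.115).

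The imprinted Dlk1-Dio3 locus encodes, on its maternal allele, a very large group of microRNAs expressed in embryo and placenta. It was 32 higher and 4 lower of 51 tested, beside 46.1% and 27.5% of all tested. The median was 3.40 against 0.86 for all tested, and without replicate 2 the same 51 gave 31 higher and 7 lower. Only 10 of them had at least 10 counts in every library. Most of the 51 behind the median of 3.40 thus had under 10 counts in at least 1 library. Of the 10, 3 were higher and 2 lower, beside 31.6% and 36.3% of all that passed this filter. Their median was 0.27 against 0.04 for all that passed. MiR-379-5p had 1453, 4315 and 11757 CPM in the heart and 2.02, 17.8 and 37.8 CPM in serum (8.08, adjusted p = 6.95e-09). MiR-127-3p had 1768, 5297 and 14679 CPM and 173, 490 and 925 CPM (3.83, adjusted p = 2.46e-06). Among those lower in the heart were miR-382-5p (-2.13) and miR-485-3p (-2.26), and miR-134-5p was not called (-0.83, adjusted p = 0.146), but was under TMM (-1.17) and without replicate 2 (-1.28). The summed locus ranged from 6500.1 CPM in replicate 7 to 56050.0 CPM in replicate 2 in the heart and from 1959 to 9186 CPM in serum, so the sums overlapped. The heart libraries with the most of it, replicates 2 and 6 (56050.0 and 37623 CPM), were also the highest in miR-10a-5p (31370.3 and 18115 CPM) and epithelial microRNAs (18127 and 5705 CPM), and the part of those in the result was not tested. Of the 87 microRNAs of the locus, 22 were not listed for serum. Among them were the 3 highest of the myocardium table alone, miR-411-3p (mean 229 CPM), miR-410-3p (189.9 CPM) and miR-380-5p (109 CPM). Taken as 0 counts in serum, miR-411-3p was at least 229.6-fold higher in the heart, from 3 counts over the 7 serum libraries.

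The cluster of miR-322 and miR-503 on the X chromosome, known for a role in cell cycle exit of muscle precursors, was 4 higher and 3 lower of 11 tested, near the 46.1% and 27.5% of all tested. MiR-450a-5p had 2097, 2766 and 4726 CPM in the heart and 5.53, 18.1 and 36.8 CPM in serum (7.55), and miR-450b-5p was given above. MiR-322-3p (3.87) was higher in the heart and miR-322-5p (0.89) was not called. MiR-351-5p (0.44) and miR-503-5p (0.41) were not called, whereas their 3p arms were lower in the heart (-3.72 and -3.16). MiR-542-3p had 6926, 8032 and 11080.2 CPM in the heart and 18.4, 53.3 and 69.2 CPM in serum. MiR-542-5p had 21.99, 28.4 and 49.4 CPM and 490, 1024 and 1233 CPM.

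Arm use within a hairpin, which does not depend on how libraries are scaled to each other, differed in most hairpins that could be measured. Of 40 hairpins with both arms at a median of at least 10 counts in each group, 33 (82.5%) differed at an adjusted p under 0.05 and at least 2-fold in the 5p over 3p ratio (exact permutation test, two-sided). In 16 of the 33 the balance lay more toward the 5p arm in myocardium and in 17 more toward the 3p arm. The leading arm itself changed in 9. The log2 ratio of miR-542 ran from -8.36 to -7.63 in the heart and from 2.99 to 5.33 in serum, a difference of -12.36 (exact permutation test, adjusted p = 0.000777). That of miR-199a ran from 0.04 to 0.74 in the heart and from -8.16 to -6.25 in serum, a difference of 7.44. By the difference in log2 ratio, miR-505 (-4.85), miR-142 (-3.92), miR-674 (-3.66) and miR-378a (-3.46) followed toward the 3p arm in the heart. MiR-532 (5.20), miR-223 (4.96), miR-351 (4.07) and miR-18a (3.70) followed toward the 5p arm. For let-7d the 5p arm led in the heart, with a log2 ratio of 1.37 to 2.99, and the 3p arm in serum, with -1.70 to -0.12. At a median of at least 50 counts on both arms, 16 of 19 hairpins were called (84.2%).

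**Figure D5:**
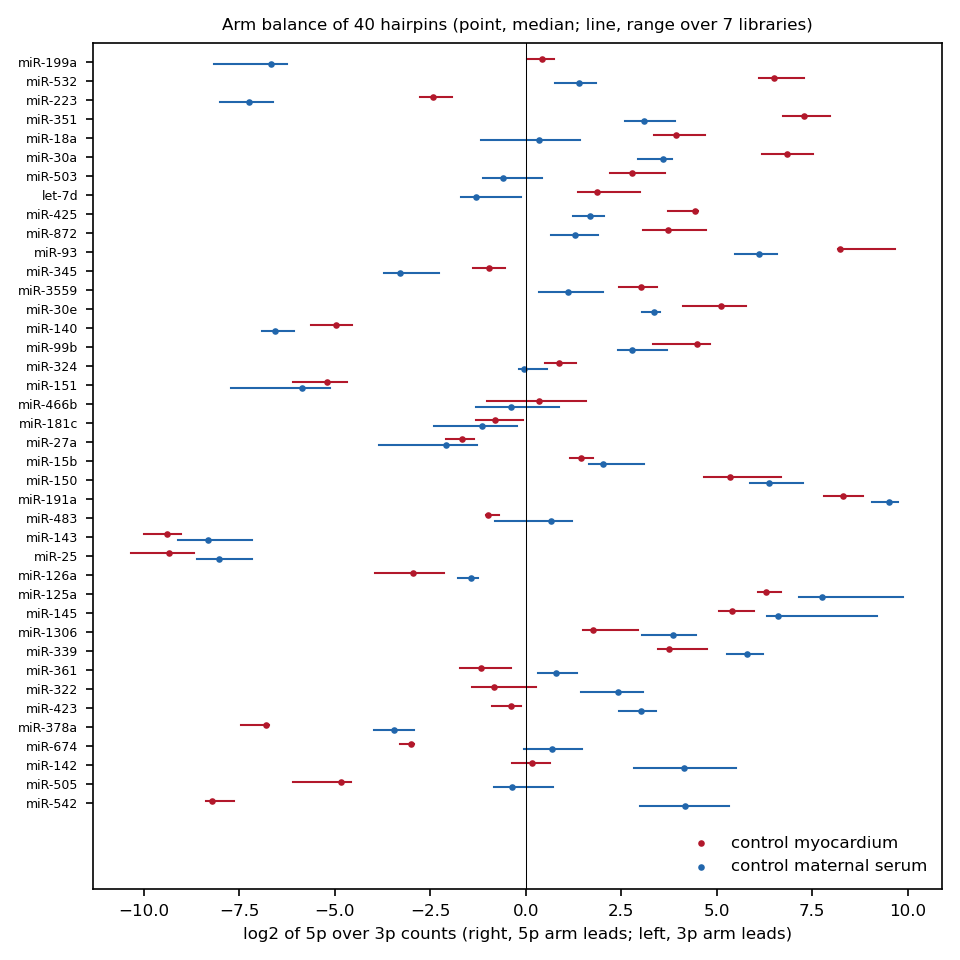
Each row is a hairpin, with the log2 of 5p over 3p counts (horizontal axis) as median and range over 7 control myocardium (red) and 7 control serum libraries (blue). The red and blue ranges of miR-542 (-8.36 to -7.63 and 2.99 to 5.33) and miR-199a (0.04 to 0.74 and -8.16 to -6.25) lie on opposite sides of 0 or far apart.

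Shares were summed by seed over the microRNAs with a matched sequence. This left out miR-486, at a mean of 112458 CPM in serum, so its seed was not ranked. Of the 19 seeds among the 10 highest so ranked in either sample type, 18 differed at an adjusted p under 0.05 (exact permutation test, two-sided). Choosing seeds by a high rank in either sample type of these same libraries favours seeds that differ, so the count adds no separate support. The miR-1/206 seed GGAAUGU held 7.89% ± 3.88 of counts in the heart and 0.245% ± 0.107 in serum. The miR-21 seed AGCUUAU held 10.6% ± 1.31 and 0.161% ± 0.0363, and the miR-148/152 seed CAGUGCA 6.64% ± 1.70 and 1.21% ± 0.195. The miR-30 seed GUAAACA held 7.89% ± 1.18 and 1.02% ± 0.266, without miR-30d-5p and miR-30b-5p. On the serum side the miR-15/16 seed AGCAGCA held 15.4% ± 4.27 against 0.302% ± 0.116 in the heart, and the miR-25/92 seed AUUGCAC 3.88% ± 0.449 against 0.846% ± 0.175. The miR-29 seed AGCACCA held 2.39% ± 0.533 against 0.0030% ± 0.0012, and the miR-125 seed CCCUGAG 1.92% ± 0.751 against 0.508% ± 0.117.

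Few microRNAs were listed for serum alone. The 5 highest of the 9 were miR-878, with 12.0, 20.2 and 26.7 CPM in serum, and miR-211-3p, miR-3102, miR-742-3p and miR-709, each at 0 in at least 1 library. All 9 together held at most 0.0070% of the counts of a serum library. The 152 names of the myocardium table alone held 0.0459% to 0.229% of a heart library.

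The microRNAs of the heart were poorer in G and C than those of serum. The mean GC content of the mature sequences, weighted by counts, was 41.3% to 44.0% in the 7 myocardium libraries and 47.7% to 48.9% in the 7 serum libraries, over the 92.1% to 95.5% and 76.9% to 90.1% of counts with a sequence. MicroRNAs called higher in the heart had a median GC content of 45.5%, those called lower 52.2%, and all tested 47.8%. Of 61 tested sequences under 40% GC, 42 were higher and 5 lower. Of 51 at 60% GC or more, 13 were higher and 21 lower. Of the 30 called hairpins with both sequences, the heart favoured the arm of lower GC in 16 and the arm of higher GC in 11, and the arms had equal GC in 3. No test was made of this tally. The part of GC content in the levels was not tested.

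The same contrast was then made in samples not used so far. These were the 7 myocardium libraries of fetuses with a ventricular septal defect (VSD), from dams given DMO, and the 7 serum libraries of the VSD group. They share wax blocks, extraction kits and the depth gap with the NC contrast, so they repeat those too. Of 349 microRNAs tested there, 183 (52.4%) were higher in myocardium and 86 (24.6%) lower. Among the 346 tested in both contrasts, the 256 called in NC all had the same direction in VSD, and 239 of them were called, which is 93.4% of the NC calls and 89.5% of the 267 VSD calls. MiR-1b gave 6.89 in VSD against 6.81 in NC, miR-191a-5p -6.65 against -6.54, and miR-133a-3p 0.41 against 0.14. MiR-206-3p, uneven among the NC hearts, gave -4.03 in VSD.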

How the data were processed

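Small RNA of 7 control fetal myocardium and 7 control maternal serum samples was analysed from the deposited tables, which give raw read counts per microRNA name, 661 names for myocardium and 518 for serum. Per the labels and the study's methods the authors made both with the TruSeq Small RNA kit on a HiSeq sequencer, with myocardium RNA from paraffin blocks (RecoverAll kit) and serum RNA by miRNeasy kit. The submitters' processing notes name bcl2fastq 2.19 and DESeq, and the study's methods the FASTX-Toolkit for read quality. Aligner, microRNA annotation and genome build are not given in the sources used here. The 28 normalized columns and the 6 columns of the authors' own comparisons (fold changes and p-values) were not used.

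Counts of the 509 names in both tables were fitted with edgeR 4.0.16 (quasi-likelihood test, filterByExpr with a minimum count of 10) in R 4.3.3. Offsets were library totals, without TMM factors, since most microRNAs are not level between tissues. A log2 difference is thus one of share in microRNA counts. P-values were Benjamini-Hochberg adjusted over all tested. Composition, seed shares and 5p over 3p ratios (0.5 added to each count) were compared by two-sided exact permutation tests over 3432 groupings (smallest p 0.000583). Scripts were tested on simulated data. Reads without molecular identifiers are not independent molecules. Near-identical members can share reads under the authors' counting; miR-466b-2-3p and miR-466b-4-3p had identical counts in all 14 libraries. The named microRNAs were the 10 highest per group, the 10 largest differences each way at 1000 CPM or more, the 5 smallest, the highest member of each list, the 5 highest of a single table and the 5 largest arm shifts each way; other members are named from the lists. The members and the 25 lists were chosen with earlier results of these data known. Alternatives tried were TMM, DESeq2 1.42.0, limma 3.58.1 on log2(CPM + 1), fitting without the filter, demanding 10 or more counts from all samples, absent names as 0, a replicate block and leaving out each library.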

Additional observations from a re-analysis of the deposited data

Results flagged for a closer look

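The levels of the named microRNAs and the composition measures gave 136 groups of 7 libraries. In 19 of them (13.97%) the highest or lowest library lay farther from the rest than Dixon's 95% criterion for 7 values allows. Chance gives about 1 in 20 groups for normally distributed values. Levels were taken as CPM without logs and the groups share libraries, so the observed share cannot be weighed against that rate. Of these 14 were in myocardium and 5 in serum, and in 13 of them the far library was myocardium replicate 2, always as the highest. It had 43.96 CPM of miR-29a-3p, 3251 CPM of miR-450b-5p, 4726 CPM of miR-450a-5p, 3016 CPM of miR-411-5p, 283 CPM of miR-150-5p, 9014 CPM of miR-199a-3p and 3071 CPM of miR-126a-5p. It also had 1765 CPM of miR-122-5p, 6816 CPM of miR-200b-3p, 416 CPM of miR-203a-3p, 50.6 CPM of miR-466c-5p, 16.2 CPM of miR-466b-3p and 2061 CPM of miR-183-5p. The other far library of the heart was replicate 6 for miR-206-3p (3406 CPM, the others at most 1213 CPM). In serum, replicate 6 was far above the others in miR-143-3p (17294 CPM) and miR-451-5p (1606 CPM), replicate 2 in let-7i-5p (18526 CPM), and replicate 3 in miR-450b-5p (11.05 CPM) and miR-3102 (25.8 CPM).

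In a joint fit of the 4 groups, the myocardium against serum difference itself differed between the VSD and the NC samples for 5 of 390 microRNAs at an adjusted p under 0.05 (edgeR, interaction term). VSD minus NC, on the log2 scale, it was 4.43 for miR-488-3p (adjusted p = 0.000205), 2.29 for miR-301a-3p (adjusted p = 0.00381), 1.36 for miR-99a-5p and 3.20 for miR-208a-3p (both adjusted p = 0.0204), and -3.73 for miR-3580-3p (adjusted p = 0.0294). MiR-208a-3p had 27 counts over the 7 NC serum libraries and 3 over the 7 VSD serum libraries, and miR-488-3p had 54 and 3. MiR-3580-3p had 14 and 2 counts over the NC and the VSD heart libraries. MiR-301a-3p had at least 59 counts in every group. MiR-99a-5p had at least 398 counts in every group, at 4850 ± 881 and 8134 ± 1311 CPM in the NC and VSD hearts and 328 ± 116 and 214 ± 75.8 CPM in the sera (SD, n = 7).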

How the results depend on the processing

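Of the 59 named and tested microRNAs, 0 lost a call in an alternative that could fit them. Demanding 10 or more counts from all samples fitted only 46 of the 59, and the others could not lose a call there. The largest log2 difference toward the heart among the 46 was 7.46. Of the values that could be fitted, 1206 of 1226 kept direction and side of the threshold. Sign changes were those of miR-133a-3p (-0.081 under TMM, -0.037 to 0.32 leaving out each library), miR-199a-3p (-0.16 under TMM and -0.16 to 0.26 leaving out each library, below 0 without myocardium replicate 2) and miR-206-3p (0.0013 to 0.051 without each of myocardium replicates 1, 2, 3, 5 and 7). Values past the threshold only in an alternative were miR-206-3p (limma, -2.67), miR-134-5p, miR-182 and miR-183-5p.

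At least 10 counts in every sample left 54 higher and 62 lower calls in NC and 56 higher in VSD, from fewer microRNAs tested; no filter gave 138 lower in VSD. Leaving out a library changed the filter's cutoff, which follows the median library total, and gave 138 to 189 higher and 85 to 111 lower in NC and 158 to 208 higher and 73 to 99 lower in VSD. Chosen after seeing the data, the same 382 microRNAs without myocardium replicate 2 gave 169 and 117. At equal depth over names of both tables the difference in number was 8.89 (adjusted p = 0.165). With at least 50 counts per arm, 16 of 19 hairpins were called.

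Leaving out each library, list medians ranged from -1.22 to 0.63 (epithelial), -1.65 to 0.051 (skeletal muscle), 4.21 to 6.69 (myosin encoded), 4.16 to 5.95 (neural) and -3.61 to -2.53 (liver and gut). With absent names at 0 the neural median was 5.80.

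The labels do not say whether replicate numbers pair samples. Same-number deviations correlated from -0.18 to 0.21, and 2 of 7 numbers correlated best with their own. These values cannot decide the question, since the heart of a fetus and the serum of its dam need not deviate alike. With a replicate block 172 microRNAs were higher and 113 lower in NC, and miR-206-3p, the only tested member of the skeletal muscle list, gave -3.09; the arm, seed and composition counts of calls did not change in an exact sign-flip test over pairs. Serum depth limits what low microRNAs can show, as 0 counts allow 5.16 to 11.05 CPM per library.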
